A study of Mus musculus with 8 samples.

Results

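Ribosome biogenesis and RNA polymerase I genes were examined in OT-1 CD8+ T cells treated with GC7 or mock-treated. The 40 genes described were chosen by symbol for their known roles, with earlier results of these data known. They were matched to Ensembl identifiers on GRCm38 and came from the 55536 genes counted in each library. All 40 were counted in every library, with at least 355 counts each, and all 40 were among the 11189 genes tested. These cells come from mice whose T cells bear a transgenic receptor of known target, the SIINFEKL peptide of ovalbumin. The mice were labelled C57BL/6, and the study's methods describe young OT-1 donors of both sexes on a Rag-1KO background that carried congenic CD45 alleles. Cells of the lymph nodes met 100 nM peptide over 2 days, and after washing they were kept for 2 days in 20 ng/ml recombinant human IL-2. The GC7 group (4 libraries) received 10 µM GC7 over the IL-2 days, and the mock group (4 libraries) received the acetic acid vehicle. GC7 is a spermidine analogue that blocks DHPS, the enzyme that starts the hypusination of eIF5a. Every library thus came from activated cells that shared the receptor, the peptide and the cytokine, and a drug effect apart from eIF5a cannot be told apart from one through it in these groups. The study calls the libraries of a group biological replicates. The labels do not tie them to animals, so p-values measure the spread between these libraries.

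Ribosomes are built in the nucleolus. RNA polymerase I copies the ribosomal DNA into a long precursor RNA, small nucleolar RNPs (snoRNPs) guide its chemical modification, and successive assembly factors cut and fold it into the small and the large subunit while ribosomal proteins join. Activated T cells grow before they divide and are known for a strong increase in this pathway. The counts below are of messenger RNA for the factors, and neither ribosomal RNA nor the proteins were measured by them.

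Between 20045041 and 25284730 counts were available per mock library and between 17528776 and 23449164 per GC7 library. Values are given as CPM, counts scaled to a common library size, with TMM factors, a normalisation that sets library sizes so that most genes do not shift. The 8 CD8 T cell markers examined all passed the filter on low values, with a summed level of 4353 to 5118 CPM in mock and 3733 to 4037 CPM in GC7 libraries. They did not move together. At an FDR of 0.01 Cd8a rose (log2 fold change 0.48), and Cd2 (-0.61), Thy1 (-0.53), Cd3g (-0.37), Cd247 (-0.26) and Cd3e (-0.23) fell. Cd3d and Cd8b1 did not pass. Cd4 was at or near 0, and the 7 macrophage, monocyte and neutrophil markers together reached at most 0.555 CPM. In the other lists 5 genes passed the filter. Zbtb7b (CD4 list, 1 of 3 past the filter) and Pecam1 (stromal list, 1 of 4) carried nearly all of their lists, which summed to 92.6 to 96.9 and 52.1 to 56.7 CPM in mock against 75.2 to 84.5 and 30.5 to 32.4 CPM in GC7 libraries. Of 4 B cell markers Ms4a1 was at 0 and Cd79b passed the filter, at 6.03 to 9.43 CPM in mock and 3.83 to 4.99 CPM in GC7 libraries. Of 4 dendritic cell markers, Siglech was at 0, Xcr1 went from 5.11 ± 0.735 to 0.628 ± 0.186 CPM and Zbtb46 from 0.455 ± 0.157 to 4.09 ± 0.679 CPM (SD, n = 4 each), and the list summed to 4.59 to 6.39 CPM in mock and 4.48 to 5.24 CPM in GC7 libraries. All 5 genes of these other lists that passed the filter also passed an FDR of 0.01, Zbtb46 upwards and the other 4 downwards. The part of these shifts in the results below was not tested. In bulk RNA a changed share of cells and a changed amount of RNA per cell cannot be told apart.

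GC7 replicate 3 stood apart from the other GC7 libraries for these genes. It was the lowest of the 4 GC7 libraries for 35 of the 40 genes, and its median log2 difference from the mock mean over the 40 genes was 0.16, against 0.36 to 0.39 in the other 3. Among mock libraries, mock replicate 2 was the highest for 20 genes and the lowest for 11. Its deviation from the group mean fell with gene length (Spearman rho = -0.59 across the 40 genes and -0.62 across all tested genes, a description since genes share the library). In GC7 replicate 3 the same rho was -0.33 across the 40 genes and -0.07 across all tested genes. Other libraries also deviated with length. Across all tested genes rho was -0.31 in GC7 replicate 4, 0.17 and 0.19 in GC7 replicates 1 and 2, and 0.34 to 0.43 in mock replicates 1, 3 and 4. Counts are also given without mock replicate 2 and GC7 replicate 3, a choice made on these same values. Leaving out the GC7 library that was lowest for most of these genes raises their fold changes by design. No label gives a reason to leave it out, so rises gained in that way are only a description.

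**Figure D1:**
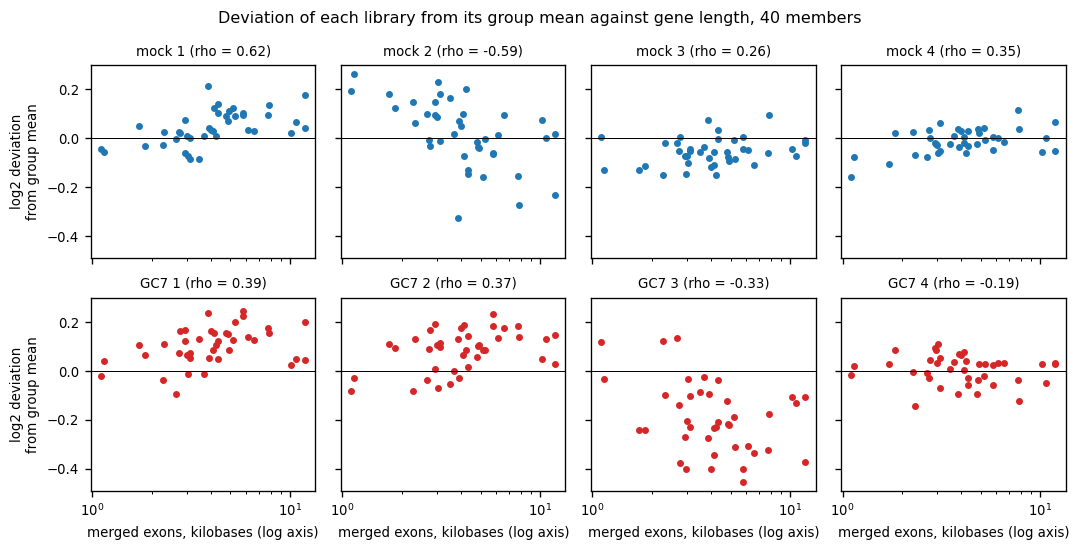
Each panel plots, for 1 library, the log2 deviation of each of the 40 genes from the mean of its own group (y axis) against the length of the gene's merged exons in kilobases (x axis, log scale), with Spearman's rho in the panel title. Points of mock replicate 2 slope downwards (rho = -0.59), and nearly all points of GC7 replicate 3 lie below 0.

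GC7-treated cells had higher levels of most of these messenger RNAs. Of the 40 genes, 26 rose at an FDR under 0.01 (edgeR quasi-likelihood test, Benjamini-Hochberg adjustment over all tested genes), where 23.0% of all tested genes rose. Only Pes1 fell, where 23.5% of all tested genes fell, and 13 genes did not pass. Scaling by library totals gave 28 rises and no fall among the 40, and turned the 2579 rises and 2635 falls of all tested genes into 3346 and 2058. The median log2 fold change of GC7 over mock was 0.35 (quartiles 0.19 and 0.54), beside 0.02 (quartiles -0.27 and 0.31) for all tested genes. The changes were small: Gnl3 alone passed a 2-fold change as well, a rule that 3.17% of all tested genes met upwards and 5.31% downwards. All GC7 libraries lay above all mock libraries for 24 genes and below them for 2, Pes1 and Ddx10, against 28.1% and 27.5% of all tested genes. The gene nearest to the threshold inside it was Ncl (adjusted p = 0.00971, edgeR) and the nearest outside was Wdr43 (adjusted p = 0.0204, edgeR). Without GC7 replicate 3, 30 of the genes rose, and without both that library and mock replicate 2, 32 rose and Pes1 alone fell. These counts leave out a library picked for its low values in these genes. The shares of all tested genes in these fits are not given here, so the 23.0% and 23.5% above do not apply to them.

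**Figure D2:**
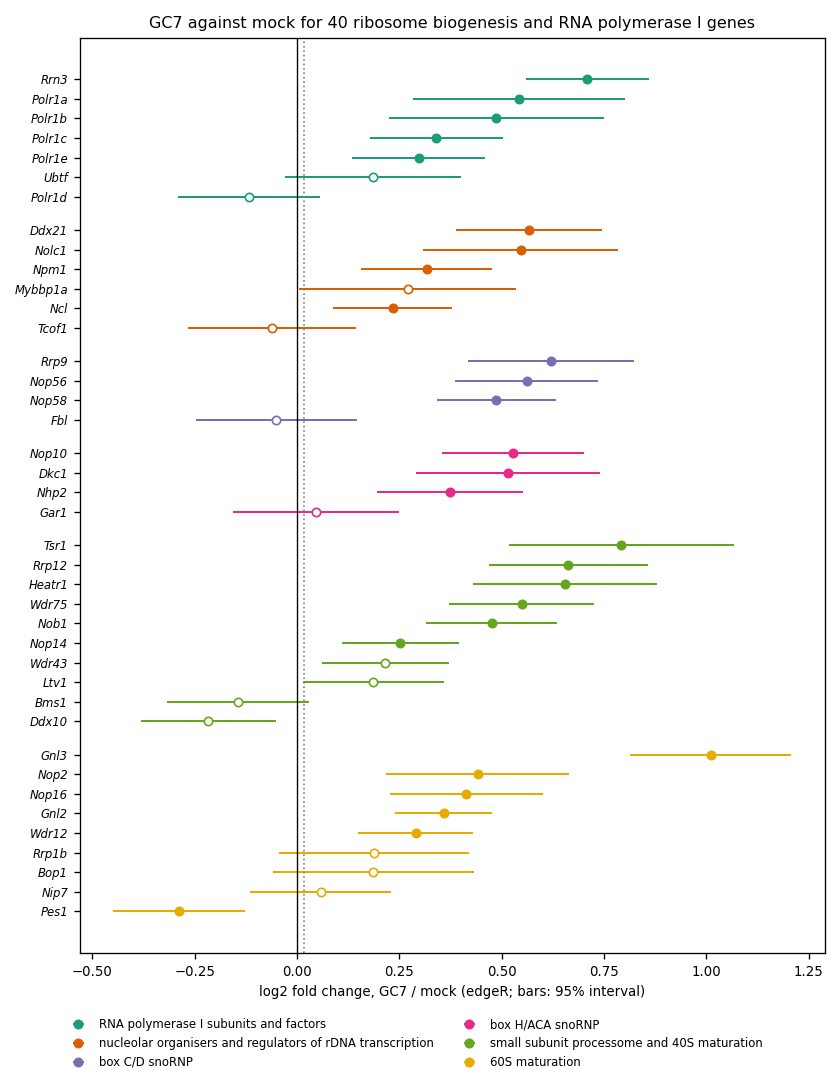
Points are log2 fold changes of GC7 over mock for the 40 genes, grouped by role and sorted within each role, with bars for the 95% interval from edgeR. Filled points passed an FDR of 0.01, the solid line marks 0 and the dotted line the median of all tested genes (0.02). Gnl3 lies farthest to the right at 1.01 and Pes1 farthest to the left at -0.29.

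As a share of all counts, the 40 genes took 0.589% ± 0.0139 (SD, n = 4) in mock and 0.772% ± 0.0379 (SD, n = 4) in GC7 libraries. The lowest GC7 share, 0.719% in replicate 3, was above the highest mock share, 0.606%. These shares are of unscaled counts, without the TMM factors (mean 0.968 in mock and 1.03 in GC7 libraries). The gap therefore includes the shift that these factors take out of the CPM values. Ncl and Npm1 supplied 48.4% of these counts in mock and 48.0% in GC7 libraries.

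**Figure D3:**
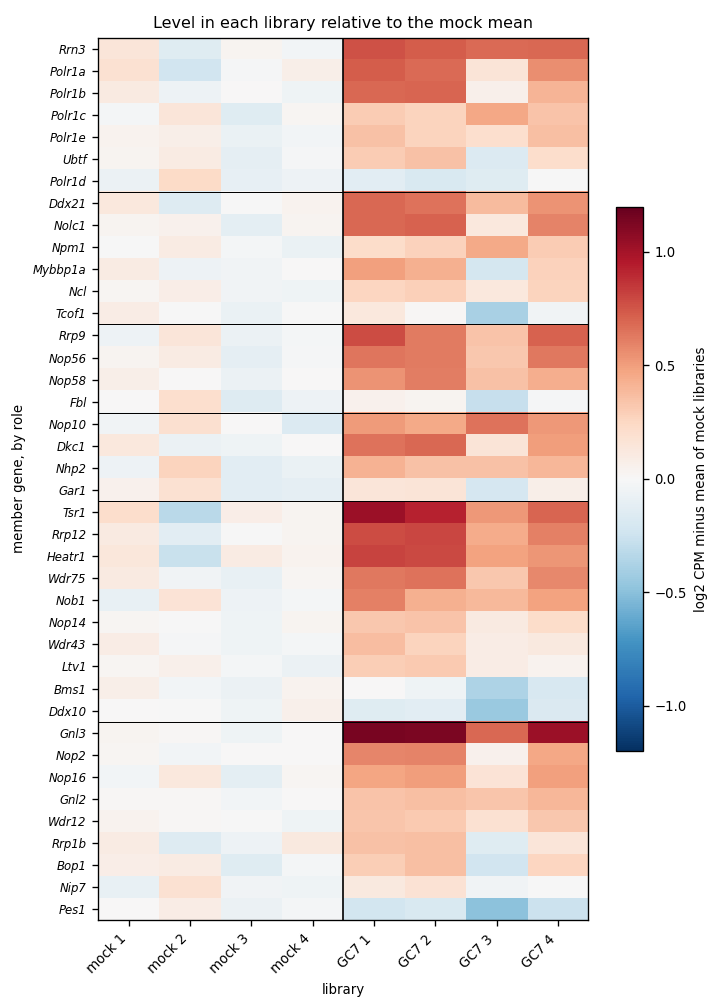
Colour gives the log2 CPM of each gene in each library minus the mean log2 CPM of the 4 mock libraries (red above, blue below), with genes in rows by role and libraries in columns. Most rows are red in the 4 GC7 columns and palest in GC7 replicate 3, whereas Pes1, Ddx10, Bms1 and Polr1d are blue in most of them.

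The first role group holds RNA polymerase I and its factors, of which 5 of 7 genes rose and none fell. Polr1a and Polr1b encode the catalytic core subunits, Polr1c and Polr1d a pair that RNA polymerase III shares, and Polr1e an accessory subunit. Rrn3 (TIF-IA) brings the initiation-competent polymerase to the promoter, and Ubtf binds along the ribosomal DNA and holds it open.

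Rrn3 (ENSMUSG00000022682, chr16:13780708-13814839, plus strand) measured 46.4, 38.1, 43.1 and 41.2 CPM in mock replicates 1 to 4 and 71.3, 69.6, 67.2 and 67.6 CPM in GC7 replicates 1 to 4. The groups were far apart and the GC7 libraries were nearly level, with GC7 replicate 3 close to the other 3. The log2 fold change was 0.71 (95% interval 0.56 to 0.86, adjusted p = 3.3e-06, edgeR). For Polr1a the mock libraries gave 61.0, 46.0, 53.3 and 56.5 CPM and the GC7 libraries 89.4, 86.2, 60.2 and 79.4 CPM. The groups overlapped, because GC7 replicate 3 lay just under mock replicate 1, and the log2 fold change was 0.54 (0.28 to 0.80, adjusted p = 0.00191, edgeR). Polr1b measured 34.0, 30.2, 31.7 and 30.6 CPM in mock and 50.9, 51.1, 33.0 and 41.8 CPM in GC7 libraries, with a log2 fold change of 0.49 (adjusted p = 0.00412, edgeR). GC7 replicate 3 was again inside the mock range while the other 3 were above it.

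Polr1c rose with a log2 fold change of 0.34 and no overlap between the groups (55.2 to 67.9 CPM in mock, 73.4 to 84.5 CPM in GC7). Its partner Polr1d did not pass, at -0.12 (-0.29 to 0.06, adjusted p = 0.226, edgeR), with 152 to 191 CPM in mock and 144 to 163 CPM in GC7 libraries. Polr1d has 1 near-identical tested copy, Gm12751, with up to 726 counts in a library against at least 2654 for Polr1d, and reads could be split between them. Polr1e rose by a log2 fold change of 0.30, from 17.1 to 19.0 CPM in mock to 20.8 to 23.3 CPM in GC7 libraries. Ubtf measured 138, 144, 125 and 134 CPM in mock and 166, 172, 121 and 156 CPM in GC7 libraries. GC7 replicate 3 was below every mock library and the other 3 were above, and Ubtf did not pass (0.19, -0.03 to 0.40, adjusted p = 0.124, edgeR). Without GC7 replicate 3 its log2 fold change was 0.29 (adjusted p = 0.00278, edgeR).

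Promoters were read for letters that known factors of growth genes bind: the E-box CACGTG, which Myc and other bHLH proteins bind, the ETS-type site CCGGAAGT, and as references the GC box GGGCGG and TATAAA. The RefSeq window of 250 bases before to 50 after the start (GRCm38.p6) was found for 34 of the 40 genes and for 8331 tested genes, and both strands were searched with no overlap between these letter strings. The E-box was in 7 of the 34 windows (20.6%, against 12.2% of tested genes and 7.15% of all 32851 windows). The ETS-type site was in 10 (29.4%, against 10.5% and 3.89%), the GC box in 24 (70.6%, against 70.7% and 35.7%) and TATAAA in 2 (5.88%, against 8.03% and 13.6%). The median log2 fold change was 0.27 for genes with an E-box and 0.41 without, and 0.32 with the ETS-type site and 0.46 without. Of genes with an E-box 3 of 7 rose, against 20 of 27 without, and Pes1, which fell, holds one. With the ETS-type site 6 of 10 rose, against 17 of 24 without. The 4 stretches below show where the letters lie, for Rrn3 and Nop2, which rose and hold an E-box, for Polr1c, which rose and holds the ETS-type site, and for Gar1, which holds it and did not pass the test. The window of Rrn3 holds 2 E-boxes, of which 1 is printed, and also the ETS-type site outside the printed stretch. Each reads 5′ to 3′ on the gene's strand with the matched letters in capitals.
Rrn3, chr16:13780624-13780683, plus strand, E-box 48 bases before the start: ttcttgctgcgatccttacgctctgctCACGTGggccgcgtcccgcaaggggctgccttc
Nop2, chr6:125131796-125131855, plus strand, E-box 60 bases before the start: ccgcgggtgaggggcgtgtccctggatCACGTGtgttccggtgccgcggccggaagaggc
Polr1c, chr17:46248053-46248114, minus strand, ETS-type site 42 bases before the start: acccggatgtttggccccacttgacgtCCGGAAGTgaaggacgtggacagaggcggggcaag
Gar1, chr3:129831406-129831467, minus strand, ETS-type site 44 bases before the start: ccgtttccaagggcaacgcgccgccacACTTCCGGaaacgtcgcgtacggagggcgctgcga
In Gar1 the site reads on the opposite strand. A match is a description of the letters, and binding was not measured.

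Nucleolar organisers and regulators of ribosomal DNA transcription came next, with 4 of 6 genes higher and none lower. Ncl (nucleolin) binds nascent precursor RNA, Npm1 (nucleophosmin) shapes the granular nucleolus and chaperones assembly, Nolc1 and Tcof1 link RNA polymerase I to snoRNPs, Ddx21 is an RNA helicase of the nucleolus, and Mybbp1a is a nucleolar repressor of ribosomal DNA transcription.

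Ncl measured 1381, 1434, 1319.6 and 1309.6 CPM in mock and 1628, 1654, 1486 and 1632 CPM in GC7 libraries. Every GC7 library was above every mock library, and the log2 fold change was 0.23 (0.09 to 0.38, adjusted p = 0.00971, edgeR). This call was lost in 10 of 15 alternative fits and in 1 of 2 that were added after seeing the data, with adjusted p-values up to 0.171 (edgeR, length offsets). Npm1 measured 1584, 1698, 1563 and 1503 CPM in mock and 1852, 1925, 2170 and 1961 CPM in GC7 libraries, and here GC7 replicate 3 was the highest. The log2 fold change was 0.32 (0.16 to 0.48, adjusted p = 0.00271, edgeR). Npm1 has 8 annotated near-identical copies, of which 3 were tested, and all copies together had at most 1271 counts in a library against at least 30153 for Npm1.

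Ddx21 rose by a log2 fold change of 0.57 (179 to 217 CPM in mock, 259 to 322 CPM in GC7) and Nolc1 by 0.55 (83.1 to 93.4 CPM in mock, 98.4 to 147 CPM in GC7). Both groups were apart for each gene. Tcof1 did not pass, at -0.06 (adjusted p = 0.592, edgeR), with 159 to 180 CPM in mock and 129 to 184 CPM in GC7 libraries, and its sign changed to 0.03 under scaling by library totals. Mybbp1a had a log2 fold change of 0.27 that did not pass (adjusted p = 0.0735, edgeR), with GC7 replicate 3 at 199.9 CPM below all mock libraries (221 to 247 CPM). Without that library it was 0.41 (adjusted p = 0.000494, edgeR).

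Both families of snoRNP proteins showed 3 genes that rose and 1 that did not pass. The box C/D snoRNP, which guides methylation of the RNA, consists of the methyltransferase Fbl (fibrillarin) with Nop56 and Nop58, and Rrp9 binds its U3 form. The box H/ACA snoRNP, which guides pseudouridylation, consists of the pseudouridine synthase Dkc1 (dyskerin) with Gar1, Nhp2 and Nop10.

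Fbl measured 207, 236, 185 and 197 CPM in mock and 213, 210, 169 and 204 CPM in GC7 libraries. The groups overlapped throughout, and the log2 fold change was -0.05 (-0.25 to 0.15, adjusted p = 0.653, edgeR), a sign that turned to 0.05 under library totals. Its partners Nop56 and Nop58 rose by log2 fold changes of 0.56 and 0.49, from 198 to 229 and 125 to 137 CPM in mock to 268 to 334 and 167 to 200 CPM in GC7 libraries. Rrp9 (ENSMUSG00000041506, chr9:106475963-106485424, plus strand) measured 38.9, 44.9, 38.6 and 39.97 CPM in mock and 69.6, 62.4, 51.3 and 66.2 CPM in GC7 libraries. All GC7 libraries were higher, replicate 3 least so, and the log2 fold change was 0.62 (0.42 to 0.82, adjusted p = 0.000115, edgeR).

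Dkc1 measured 77.9, 68.1, 68.8 and 71.7 CPM in mock and 113, 115, 79.8 and 102 CPM in GC7 libraries. GC7 replicate 3 was just above mock replicate 1, and the log2 fold change was 0.52 (0.29 to 0.74, adjusted p = 0.000976, edgeR). Nop10 rose by 0.53 and Nhp2 by 0.37 on the log2 scale, each without overlap between the groups. Gar1 had 52.0 to 64.5 CPM in mock and 49.6 to 63.3 CPM in GC7 libraries and did not pass (log2 fold change 0.05, -0.16 to 0.25, adjusted p = 0.682, edgeR). Without mock replicate 2 and GC7 replicate 3 it was 0.19 (adjusted p = 0.00952, edgeR).

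Small subunit processome and maturation factors included 6 of 10 genes that rose and none that fell. Heatr1 and Wdr75 belong to the early complex that also supports RNA polymerase I transcription, Wdr43 to the same complex, and Nop14, Bms1 and Ddx10 to the later processome. Rrp12 and Ltv1 act on the late pre-small subunit and its export, Tsr1 keeps that particle from starting translation, and Nob1 is the endonuclease that makes the final cut of its RNA.

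Tsr1 (ENSMUSG00000038335, chr11:74898071-74909342, plus strand) had the second largest log2 fold change, 0.79 (0.52 to 1.07, adjusted p = 0.000185, edgeR). It measured 33.8, 23.3, 30.7 and 29.9 CPM in mock and 59.4, 55.1, 41.7 and 47.2 CPM in GC7 libraries, so every GC7 library was higher and mock replicate 2 was the lowest of all. Srr, on the opposite strand, overlaps 32.3% of its exon bases, and the strand setting of the counting is not given in the sources used here. Srr itself had a log2 fold change of 0.10 (adjusted p = 0.383, edgeR) and at most 238 counts in a library, against at least 550 for Tsr1. Rrp12 (ENSMUSG00000035049, chr19:41862851-41896173, minus strand) measured 28.1, 23.9, 26.1 and 26.7 CPM in mock and 44.9, 45.6, 35.7 and 39.7 CPM in GC7 libraries. The groups were apart and its log2 fold change was 0.66 (0.47 to 0.86, adjusted p = 4.68e-05, edgeR). Heatr1 (ENSMUSG00000050244, chr13:12395027-12440289, plus strand) measured 50.6, 38.1, 49.1 and 47.3 CPM in mock and 80.7, 79.8, 64.2 and 66.4 CPM in GC7 libraries. The groups were apart, with mock replicate 2 lowest, and the log2 fold change was 0.65 (0.43 to 0.88, adjusted p = 0.000169, edgeR).

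Nob1 measured 67.7, 80.6, 69.0 and 70.7 CPM in mock and 109, 96.4, 94.1 and 101 CPM in GC7 libraries, and it rose by a log2 fold change of 0.48 (0.32 to 0.64, adjusted p = 0.000141, edgeR). Wdr75 rose by 0.55 and Nop14 by 0.25 on the log2 scale. Wdr43 (0.22, adjusted p = 0.0204, edgeR) and Ltv1 (0.19, adjusted p = 0.0579, edgeR) did not pass. Bms1 and Ddx10 had negative values that did not pass, -0.14 (adjusted p = 0.137, edgeR) and -0.22 (adjusted p = 0.0266, edgeR). For Ddx10 the groups were apart nonetheless, with 63.9 to 69.2 CPM in mock and 48.6 to 60.9 CPM in GC7 libraries.

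Among 9 large subunit factors, 5 rose and Pes1 fell. Pes1, Bop1 and Wdr12 form the PeBoW complex, Nop2 methylates a base of the large subunit RNA, and Nop16, Nip7 and Rrp1b accompany the early particle. Gnl2 and Gnl3 (nucleostemin) are related GTP-binding proteins of the nucleolus, and Gnl3 is known from stem cells and proliferating cells.

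Gnl3 (ENSMUSG00000042354, chr14:31012433-31019152, minus strand) had the largest change of the 40 genes. It measured 60.4, 59.7, 57.1 and 59.1 CPM in mock and 129.96, 129.6, 95.5 and 121 CPM in GC7 libraries. The mock libraries were tight (CV 2.40%), every GC7 library was far above them, and the log2 fold change was 1.01 (0.81 to 1.21, adjusted p = 1.51e-06, edgeR). It exceeded that of 96.9% of tested genes. Over all alternative fits it ran from 0.96 to 1.11, so the 2-fold rule was not met in 5 of them: limma-voom, length offsets, and without mock replicate 3, GC7 replicate 1 or GC7 replicate 2.

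Pes1 (ENSMUSG00000020430, chr11:3963975-3980004, plus strand) measured 99.4, 105, 94.2 and 97.2 CPM in mock and 84.6, 86.9, 70.1 and 82.6 CPM in GC7 libraries. Every GC7 library was below every mock library, and the log2 fold change was -0.29 (-0.45 to -0.13, adjusted p = 0.00503, edgeR). Without mock replicate 2 and GC7 replicate 3 it was -0.19 (adjusted p = 0.00132, edgeR). Scaling by library totals gave -0.19 (adjusted p = 0.0382, edgeR), and leaving out mock replicate 1 or 4 or GC7 replicate 1 or 4 gave adjusted p-values of 0.0106 to 0.0133 (edgeR). Its partner Bop1 measured 62.8, 63.8, 53.8 and 58.6 CPM in mock and 73.0, 76.7, 50.8 and 71.2 CPM in GC7 libraries. GC7 replicate 3 was below all mock libraries and the other 3 above them. Bop1 did not pass (0.19, -0.06 to 0.43, adjusted p = 0.174, edgeR), and without GC7 replicate 3 its log2 fold change was 0.31 (adjusted p = 0.00369, edgeR).

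Wdr12, the third PeBoW gene, rose by a log2 fold change of 0.29, with 29.4 to 31.4 CPM in mock and 34.5 to 38.3 CPM in GC7 libraries. With length offsets its log2 fold change was 0.19 and did not pass (adjusted p = 0.065, edgeR). Stretches of its annotated exons match 49 other genes, as 38 others match Nop58, so part of the reads of both could be shared with unrelated genes. Nop2 rose by 0.44, Nop16 by 0.41 and Gnl2 by 0.36 on the log2 scale. Gnl2 had the lowest CV of the 40 genes in GC7 libraries (1.88%), at 50.9 to 52.7 CPM in mock and 65.7 to 68.6 CPM in GC7 libraries. Rrp1b (0.19, adjusted p = 0.149, edgeR) and Nip7 (0.06, adjusted p = 0.545, edgeR) did not pass.

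Partners of 1 complex did not all move by the same amount. Ratios of counts within a library, which the scaling of the library cannot change, were taken for 12 pairs chosen after the values were seen, so they carry no test. The ratio of Pes1 to Wdr12 lay at 3.11 to 3.41 in mock libraries and at 2.03 to 2.29 with GC7, and that of Pes1 to Bop1 at 1.58 to 1.75 and at 1.13 to 1.38. Fbl to Nop56 went from 0.934 to 1.03 in mock to 0.613 to 0.639 in GC7 libraries, and Gar1 to Dkc1 from 0.739 to 0.947 to 0.549 to 0.622. These pairs were apart between the groups, as were Fbl to Nop58, Polr1d to Polr1c and Wdr43 to Heatr1. Ratios of gene pairs at large were not taken, so no share stands beside these. Of single tested genes, 28.1% had all GC7 libraries above all mock libraries and 27.5% below. The other 5 overlapped: Polr1a to Polr1b averaged 1.71 in mock and 1.79 in GC7, Nop56 to Nop58 1.63 and 1.72, Npm1 to Ncl 1.17 and 1.24, Nhp2 to Nop10 2.29 and 2.06, and Bop1 to Wdr12 1.96 and 1.82.

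Levels between genes were compared per kilobase of merged exons. In mock libraries Npm1 was highest with 596 CPM per kilobase, followed by Ncl with 134 and Nhp2 with 98.3, and the lowest were Wdr12 with 2.55, Polr1a with 4.56 and Polr1e with 4.65. The median of the 40 genes was 20.0 CPM per kilobase, against 7.81 for all tested genes. Polr1a and Polr1e were neighbours whose mock libraries overlapped, as did those of Polr1d (53.7), Nop56 (52.2) and Fbl (49.0), whereas Npm1 and Ncl were apart from every other gene. With the longest transcript in place of merged exons, Gnl3 was 2.69 times and Polr1d 2.25 times as high per kilobase, Polr1d (121) came before Nhp2 (108), and Rrp12 (6.05) fell below Polr1e (6.07). Wdr12 was lowest by both, with 11955 bases of merged exons and 10012 bases in its longest transcript. Its place depends on these lengths, and shorter transcripts were not tried. Levels and fold changes ran against each other weakly (Spearman rho = -0.38 across the 40 genes, -0.27 across all tested genes), a description in which the mock level enters both measures.

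**Figure D4:**
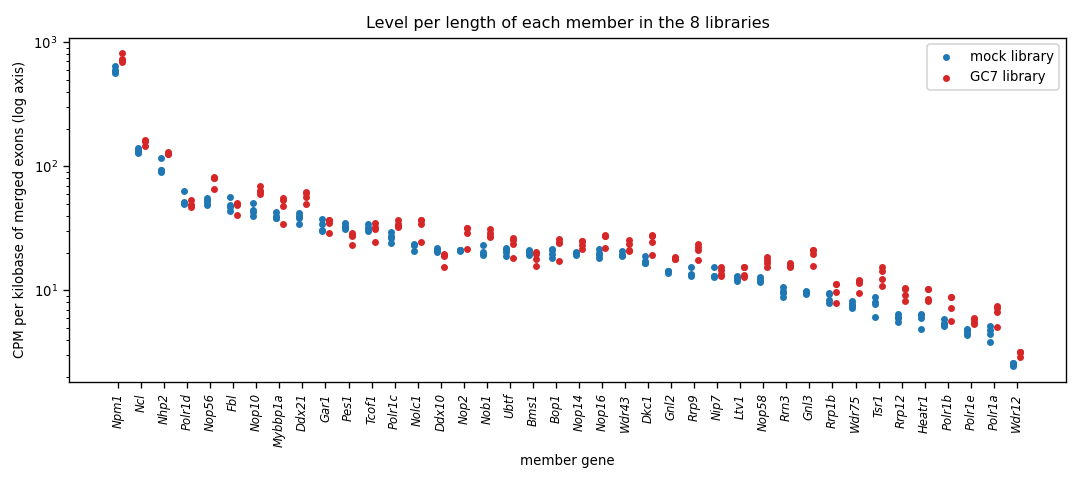
Each gene has 8 points, 4 mock libraries (blue) and 4 GC7 libraries (red), at its CPM per kilobase of merged exons (y axis, log scale), ordered by the mock mean. Npm1 tops the order at 596 and Wdr12 ends it at 2.55 in mock libraries, and the red points of Gnl3 lie wholly above its blue points.

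Some of these genes also carry snoRNA genes within their span, so that 1 transcript can yield both a snoRNP or processing protein and a guide RNA. Their place in introns was not checked, and some, such as Snord57 in Nop56, overlap annotated exons. The hosts were looked at after the values were seen. The annotation places 21 snoRNAs inside 7 of the 40 genes, on the same strand: Ncl, Nop56, Nop58, Dkc1, Wdr43, Tsr1 and Gnl3. This is 17.5% of them, against 1.84% of tested genes. The 7 had a median log2 fold change of 0.52 and 6 rose, all but Wdr43, while the other 33 genes had a median of 0.32. Across all tested genes the 206 hosts had a median of 0.28, with 93 higher (45.1%) and 17 lower.

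The rest of the pathway was followed through 164 further genes in 8 lists. Exosc6 was listed at 0 in every library, and of the 163 tested genes 58 rose (35.6%), 17 fell (10.4%) and 88 did not pass, beside 23.0% higher and 23.5% lower of all tested genes. Under library totals 77 rose and 11 fell. Their median log2 fold change was 0.14. Differences between the lists were not tested. Of other large subunit genes 24 of 55 rose and 2 fell (median 0.26), and of other small subunit genes 22 of 51 rose and 4 fell (median 0.17). The list labelled pre-rRNA exonucleases, most of it RNA exosome subunits and cofactors, had 4 of 15 higher and 5 lower (median -0.04). Other snoRNP and assembly genes had 1 of 10 higher, the snoRNP protein Snu13, and 3 lower (median -0.04). RNA polymerase III subunits had 3 of 11 higher and 2 lower (median 0.10), RNA polymerase II subunits none of 7 higher and 1 lower (median -0.06), and subunits shared by the polymerases 1 of 5 higher and none lower (median 0.01).

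**Figure D5:**
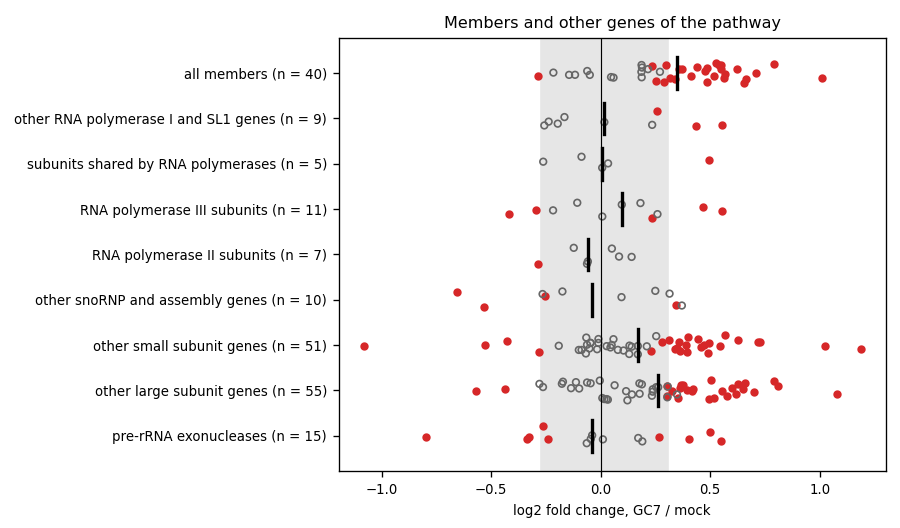
Points are log2 fold changes of GC7 over mock (x axis) for the 40 genes and for the tested genes of each further list (y axis, with n). Red points passed an FDR of 0.01, open points did not, black bars are medians and the grey band spans the quartiles of all tested genes (-0.27 to 0.31). The medians are highest for the 40 genes (0.35) and for other large subunit genes (0.26), and lowest for RNA polymerase II subunits (-0.06).

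Further genes of RNA polymerase I and of SL1, the promoter factor that combines Tbp with the Taf1 proteins, moved unevenly. Of these, 3 of 9 were higher and none lower, beside 23.0% higher and 23.5% lower of all tested genes. Their median log2 fold change was 0.02, as it was over all tested genes. Twistnb, a polymerase subunit, went from 31.1 ± 1.99 to 45.7 ± 2.76 CPM (SD, n = 4 each), a log2 fold change of 0.55. Taf1d went from 123 ± 1.76 to 167 ± 4.48 CPM (0.43) and Tbp from 29.9 ± 0.990 to 35.7 ± 1.83 CPM (0.26). The remaining 6 did not pass: Taf1a at 0.23, Znrd1 at 0.02, Taf1b at -0.17, Taf1c at -0.20, Cd3eap at -0.24 and the terminator Ttf1 at -0.26.

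The largest rises among the further genes were of Utp20 (small subunit processome, 31.8 ± 4.13 to 72.3 ± 6.93 CPM, log2 fold change 1.19), Mdn1 (the AAA-type ATPase that strips factors from the large subunit, 41.5 ± 9.04 to 87.5 ± 13.5 CPM, 1.08) and Tsr2 (a chaperone of a small subunit protein, 12.3 ± 1.11 to 25.0 ± 2.13 CPM, 1.02). Rbm28 (0.81) and Nol9 (0.79) followed. The largest falls were of Utp14b (16.4 ± 2.85 to 7.80 ± 1.31 CPM, -1.08), Exosc8 (an RNA exosome subunit, 164 ± 16.9 to 94.4 ± 2.94 CPM, -0.80), Pih1d1 (-0.66), Ddx54 (-0.57) and Ruvbl2 (-0.53), and Pih1d1 and Ruvbl2 are members of the R2TP machinery that assembles snoRNPs. All 10 had their groups apart. They were picked for the largest changes past the FDR, so this was nearly fixed by the choice. Of all tested genes, 28.1% had every GC7 library above every mock library and 27.5% below. Utp14b overlaps Acsl3 on the same strand in 3.18% of its exon bases, and Acsl3 itself fell by 1.54 on the log2 scale. Other genes overlap 15.5% of the exon bases of Ddx54 (Cfap73 and Gm43579), 15.4% of those of Ruvbl2 (Gys1 and Lhb) and 30.3% of those of Tsr2 (Fgd1). Gys1 also matches Ruvbl2 in sequence and had up to 2143 counts in a library, against as few as 1499 for Ruvbl2, and Rbm28 holds stretches that match 25 other genes.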

How the data were processed

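Messenger RNA of OT-1 CD8+ T cells was sequenced in 4 GC7-treated and 4 mock-treated libraries, grouped by the sample labels. Each library has its own table of unnormalised read counts for every gene, as the authors deposited it. Per the study's methods and the submitters' processing notes, paired-end reads were trimmed with Cutadapt, aligned with STAR to GRCm38 and counted with featureCounts (Ensembl release 96). The strand setting and the treatment of multiply mapped reads are not given in the sources used here.

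Genes above 3 CPM in at least 4 libraries were kept, which in the smallest library corresponds to 52.6 counts. GC7 was compared with mock in edgeR (version 4.0.16, R version 4.3.3), as the study names edgeR, with TMM factors, no covariates, a quasi-likelihood F test and p-values adjusted after Benjamini and Hochberg across 11189 genes. Genes passed at an FDR under 0.01, and a second rule also asked for more than a 2-fold change. Total counts per library were 17528776 to 25284730. The common biological coefficient of variation was 0.0918, and intervals are 95% intervals of the fit.

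The alternatives were a replicate block, RLE factors, library totals, DESeq2 (version 1.42.0), limma-voom (version 3.58.1), no filter, filterByExpr and each library left out. Length offsets and leaving out mock replicate 2 with GC7 replicate 3 were added after seeing the data. Near copies were BLAST (version 2.17.0) matches of 200 or more bases at 90% or higher identity, and overlaps, snoRNAs and lengths came from GENCODE M21. Promoter sequences came from RefSeq. Other steps ran in Python 3.11.15 with scipy 1.17.1, pandas 2.3.3 and numpy 2.4.6.

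The 40 genes, the further lists and the tests were chosen with earlier results of these data known. Named with values in every library are the 6 largest rises and the falls past the FDR and a fixed core of 12 genes (Ncl, Npm1, Fbl, Dkc1, Polr1a, Polr1b, Ubtf, Rrn3, Bop1, Pes1, Heatr1 and Nob1). Of the further genes, the 5 largest rises, the 5 largest falls and all genes of RNA polymerase I and SL1 are named. Ratio pairs, snoRNA hosts and overlapping neighbours were chosen after their values were seen.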

Additional observations from a re-analysis of the deposited data

Results flagged for a closer look

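In 12 of 86 groups of 4 libraries, 1 library lay far from the other 3 by Dixon's ratio (its distance from the next library divided by the range of the group) above the 95% critical value. Chance flags about 1 in 20 groups, or 4.3 of 86, and the groups share libraries and so are not independent.

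GC7 replicate 3 was the low library for Nop56 (ratio 0.929), Nop16 (0.907), Wdr12 (0.892), Ncl (0.844) and Ddx10 (0.836), and for the median log2 difference from the mock mean over the 40 genes (0.864). Mock replicate 2 was the high library for Polr1d (0.894), Nip7 (0.861) and Nhp2 (0.835), and its TMM factor was the low one of the mock group (0.860). Mock replicate 3 was the low library for Nolc1 (0.863) and Gnl2 (0.861). The cause was not tested.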

How the results depend on the processing

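The count of genes that rose (26 of 40) was 24 to 28 under the other scalings, filters, tools, the replicate block and length offsets, 20 to 30 with 1 library left out (lowest without mock replicate 4, highest without GC7 replicate 3), and 32 without mock replicate 2 and GC7 replicate 3. For these counts of rises, a count over all tested genes is given only for the main fit and library totals. The median log2 fold change of the 40 genes was 0.31 to 0.44 throughout. Under library totals, which moved the median of all genes by 0.09, no gene of the 40 fell (0), and of the further genes 11 fell, 0 of them by more than 2-fold. No gene (0) rose by more than 2-fold with limma-voom or length offsets. With 1 library left out, the fall of Pes1 gave a count of 0 to 1, rises above 2-fold 0 to 1, and falls above 2-fold among the further genes 0 to 1. Over all tested genes, 355 rises and 594 falls above 2-fold became 773 and 1189 without a filter and 605 and 1007 with filterByExpr, where more genes were tested, and 227 rises without mock replicate 2 and GC7 replicate 3, where the cause was not tested.

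Calls of 8 genes were lost with 1 library left out: Ncl (adjusted p up to 0.044, edgeR) and Polr1e (0.020) and Nop14 (0.0245) without most single libraries, Polr1b (0.0149) without mock replicate 3 or 4 or GC7 replicate 1 or 2, Npm1 (0.0149) without mock replicate 1, 3 or 4, Pes1 (0.0133) without mock replicate 1 or 4 or GC7 replicate 1 or 4, Nop2 (0.0103) without GC7 replicate 1 or 2, and Wdr12 (0.0108) without mock replicate 4. Length offsets lost Ncl (0.171) and Wdr12 (0.065). Without a filter Polr1e, Ncl and Nop14 were lost and Mybbp1a was gained, and library totals gained Wdr43 and Ltv1. Without mock replicate 2 and GC7 replicate 3, Ubtf, Mybbp1a, Gar1, Wdr43, Bop1 and Rrp1b were gained and no call was lost.

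Signs changed for 3 genes that did not pass. Tcof1 was 0.0327 under library totals, 0.0323 without mock replicate 2 and GC7 replicate 3, and -0.128 to 0.0381 with 1 library left out. Fbl was 0.0466, 0.0948 and -0.107 to 0.0269 in the same settings, and Gar1 was -0.0039 to 0.127 with 1 library left out. The median level per kilobase was 24.4 instead of 20.0 CPM when the longest transcript replaced merged exons.

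Same-numbered libraries of both groups did not deviate together (correlations -0.18 to 0.27, mean 0.04, against -0.31 to 0.41 for different numbers), so the numbers were not taken as pairs. With the replicate block 25 of the 26 genes rose and Pes1 fell, and only Ncl was lost. The 40 genes had at least 355 counts in every library, and the standard errors of their log2 fold changes had a median of 0.08.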
